A study of Mus musculus with 24 samples.

Results

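The oxidative phosphorylation subunits are the proteins that build complexes I to V of the inner mitochondrial membrane. Genes of the deposited matrix were taken as members when their symbol is that of a subunit (the Nduf, Sdh, Uqcr, Cox4 to Cox8 and Atp5 series, Cyc1 and the mitochondrially encoded Nd, Co, Cytb and Atp genes), pseudogenes excluded. This gave 94 of 14159 genes, with 42 in complex I, 4 in complex II, 10 in complex III, 19 in complex IV and 19 in complex V. The mitochondrial genome encodes 13 of them and the nuclear genome 81. Ndufa4, Cox6b2 and Ndufb1 are not in the matrix and were not analysed here. Ndufa4l2, Atp5s and Atp5sl are named like subunits but are not fixed parts of a complex, and they were kept under their names.

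Bulk RNA of the whole quadriceps was sequenced from female mice of the strains C57BL/6J (B6) and MRL/MpJ (MRL), with 3 libraries in each of 8 groups. The mice were 6 to 8 weeks old on the day before surgery, and the age of uninjured mice at sampling is not stated. Each strain gave uninjured muscle and muscle with volumetric muscle loss, in which a block of the quadriceps is cut out. The defect held saline (control injury), powdered extracellular matrix of pig small intestine (ECM) or polyethylene powder (PE). Injured muscle was taken 21 days after surgery. MRL is an inbred strain noted for healing ear wounds and for autoimmunity, B6 is the common laboratory strain, and no transgene was used. Each library is a whole muscle, so the defect, the material, fat, immune cells and intact fibres were sequenced together.

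Oxidative phosphorylation makes most of the ATP of a working muscle fibre. Complexes I (NADH dehydrogenase) and II (succinate dehydrogenase) pass electrons to ubiquinone, complex III hands them on to cytochrome c, and complex IV (cytochrome c oxidase) gives them to oxygen, while complexes I, III and IV pump protons. Complex V, the ATP synthase, uses the proton gradient to make ATP. Complex II is wholly nuclear in origin, whereas each of the others joins subunits from both genomes. Heart and skeletal muscle carry their own isoforms of some complex IV subunits, and of these Cox7a1 and Cox8b are also made by brown fat cells.

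The values are log2 CPM, counts scaled to library size on a log2 scale, in which a difference of 1 is a doubling. The mean effective library size that the values imply was 25149678 reads, so that 3 counts correspond to 0.119 CPM. Genes counted as called where limma gave an adjusted p below 0.05, with Benjamini-Hochberg adjustment over all 14159 genes. The libraries numbered 2 of PE-treated MRL and PE-treated B6 mice stood apart before any comparison. The mean log2 CPM of 20 contractile fibre genes was 10.5 in the former and 10.8 in the latter, against 11.8 to 13.1 in the other 22 libraries. The mean of 11 macrophage markers was 7.11 and 7.72 in them. The remaining PE-treated MRL libraries had macrophage means of 4.07 and 4.09, and the remaining PE-treated B6 libraries had 6.10 and 6.76. For PE against saline averaged over both strains, the counts of subunits, complexes and gene lists are given with and without both.

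In uninjured B6 muscle the mitochondrially encoded subunits were the most abundant per kilobase among members with a matched transcript length. Per kilobase of transcript, mt-Co1, the catalytic core of complex IV, reached 30183 CPM, and mt-Nd6, the lowest of the 13, had 1963 CPM. The highest nuclear subunit with a matched transcript length was Cox4i1, a structural subunit of complex IV, at 794 CPM per kilobase. It was followed by Cox6a2, the muscle-type regulatory subunit of complex IV, at 526 and Sdha, the flavoprotein of complex II, at 516 CPM per kilobase. Most Atp5 genes of complex V had no matched length and are outside this ranking. Before division by length, Atp5b and Atp5a1 were at 11.93 and 11.46 log2 CPM in uninjured MRL muscle, above Cox4i1 at 9.25. The 13 mitochondrially encoded subunits together took a median of 12.3% of all CPM in uninjured B6 libraries (lowest 11.5%, highest 13.2%), and the 81 nuclear subunits 2.15% (2.02% to 2.25%). Uninjured MRL libraries had 11.0% (9.66% to 15.2%) and 2.06% (1.88% to 2.45%), so the strains overlapped on both measures.

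**Figure D1:**
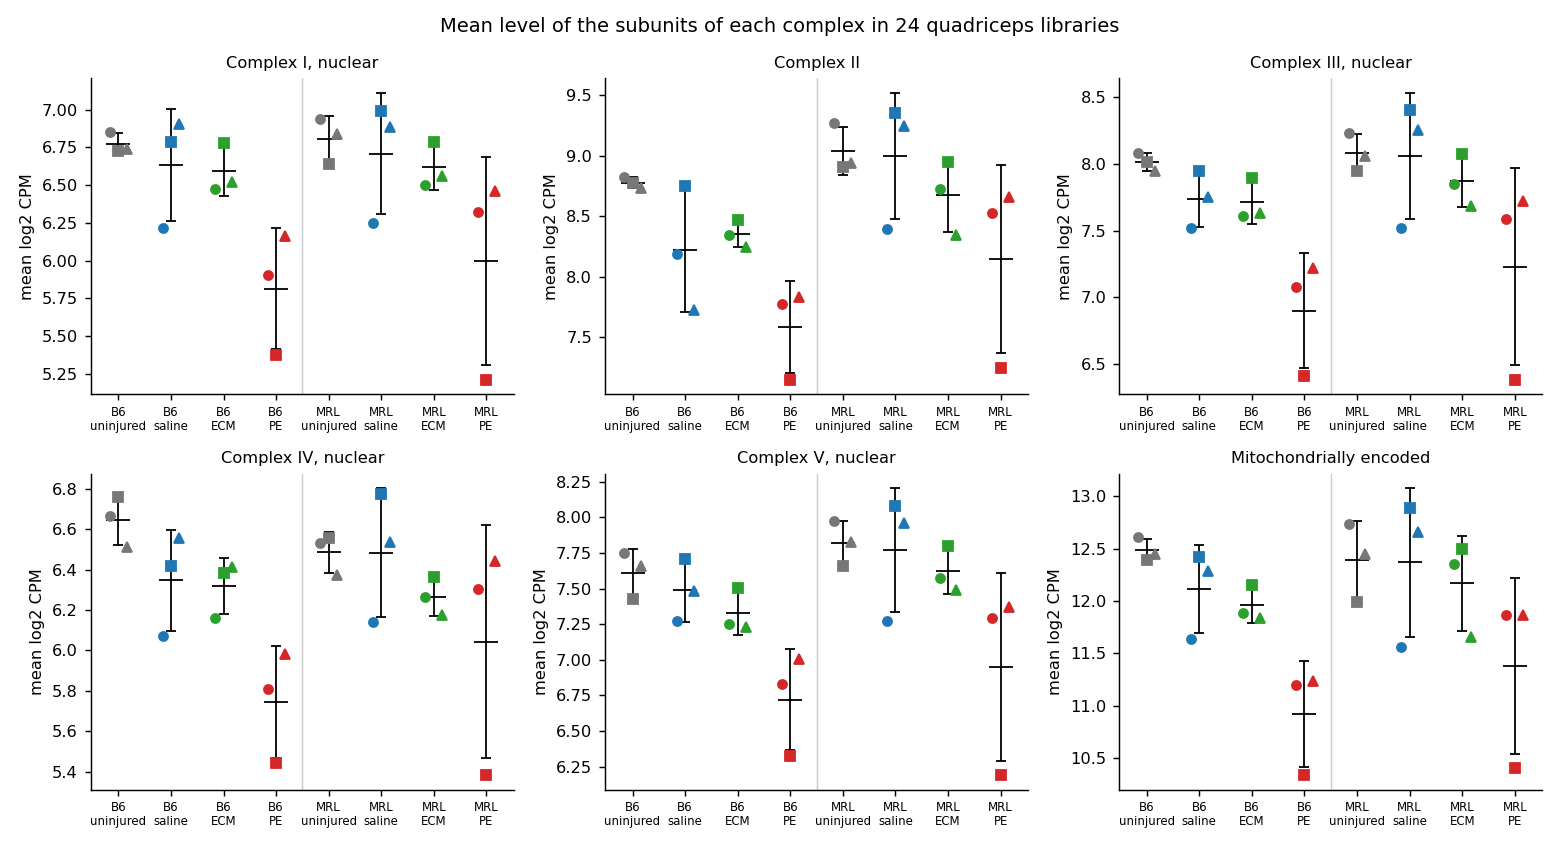
Mean log2 CPM of the nuclear subunits of complexes I to V and of the 13 mitochondrially encoded subunits (vertical axes) in the 8 groups (horizontal axis). Circles, squares and triangles are libraries 1, 2 and 3, and bars are group means ± SD (n = 3). The PE libraries numbered 2 are the lowest of all libraries in every panel, and in uninjured muscle only the complex II panel separates the strains, at 8.73 to 8.82 in B6 and 8.91 to 9.27 in MRL libraries.

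With PE, subunits of all complexes were lower on the deposited scale, a direction that turned when libraries were centred on the mean of contractile genes. Averaged over both strains, 81 of the 94 subunits fell in PE-treated against saline-treated muscle and 1 rose. Over all genes tested, 9.17% fell and 15.0% rose in this comparison. The median change of the 94 subunits was -0.84 on the log2 scale, or -44.3%, beside 0.05 for all genes. In bulk tissue, fewer muscle cells and less subunit RNA per cell cannot be told apart.

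The size of that count depended on the libraries and on the reference scale. With both PE libraries numbered 2 left out, 14 subunits fell and 0 rose, with a median of -0.51. In that fit 111 of all 14159 genes fell and 665 rose, together 5.48% of them. Fitted on the 4 PE and saline groups alone, 0 subunits fell and 2 rose, with a median of -0.84 and 0.939% of all genes called. When each library was centred on its mean contractile gene level, 0 fell and 14 rose, and the median was 0.26. The contractile genes used for centring were themselves lower with PE, with a median change of -0.85 over 20 genes, of which 8 fell. That centring moved the median of all genes to 1.15, so that the subunits lay below it. Scaled to equal library totals, 72 subunits fell and 2 rose, with a median of -0.58 beside 0.31 for all genes. After quantile normalization 77 fell and 1 rose, with a median of -0.77 beside -0.11. The shares of all genes called with contractile centring, equal totals and quantile normalization are not given beside these counts. Those counts therefore do not show a change particular to the subunits.

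By complex, 33 of 35 nuclear subunits of complex I fell, 3 of 4 in complex II, 9 of 9 in complex III, 11 of 16 in complex IV and 14 of 17 in complex V. Their median changes were -0.78, -0.69, -0.85, -0.65 and -0.83 in that order. Of the 13 mitochondrially encoded subunits 11 fell, with a median of -1.10. Without both PE libraries numbered 2, the counts that fell were 5, 0, 1, 3 and 5 in complexes I to V and 0 among the mitochondrially encoded subunits, with medians of -0.46, -0.40, -0.51, -0.43, -0.52 and -0.72. With all libraries the medians of the 5 complexes lay within a narrow band, and complex IV held both the subunit with the largest decrease and those that were higher.

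**Figure D2:**
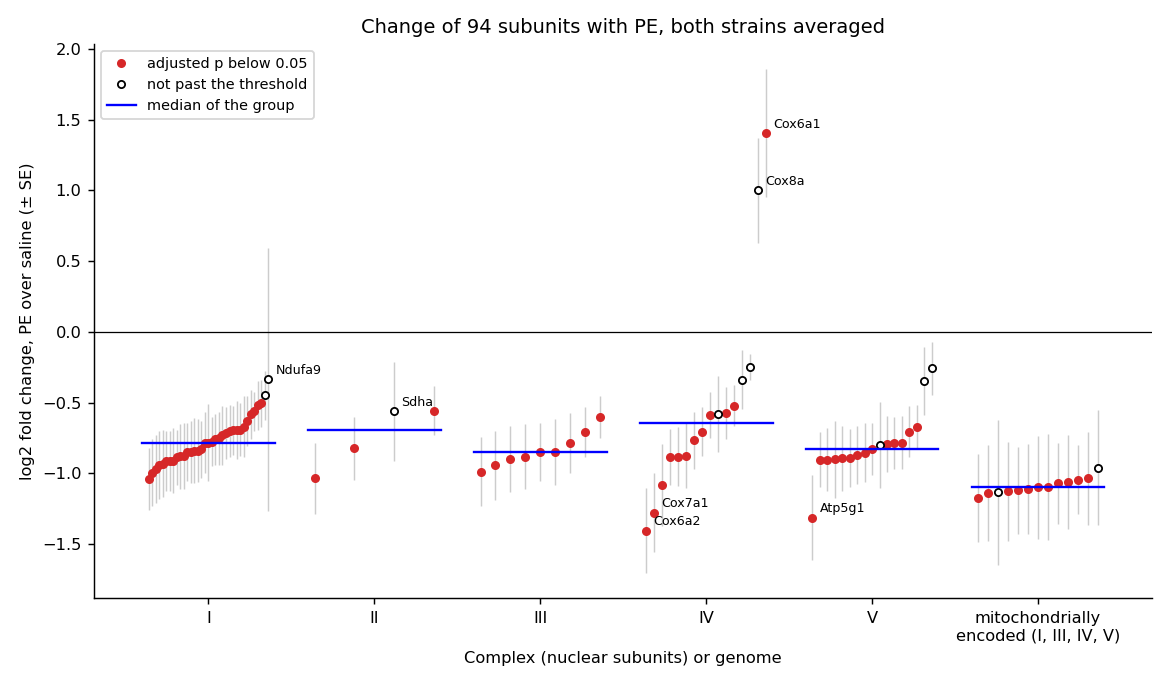
Log2 fold change of each of the 94 subunits, PE over saline averaged over both strains (vertical axis, ± SE), for the nuclear subunits of each complex and the mitochondrially encoded subunits (horizontal axis). Filled red points passed an adjusted p of 0.05, open points did not, and blue lines are group medians, which run from -0.65 in complex IV to -1.10 in the mitochondrially encoded group. Cox6a1 and Cox8a are the only subunits above 0 on the deposited scale, whereas the median of all subunits was 0.26 with centring on contractile genes.

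In complex I, Ndufv1, which carries the NADH-binding site, fell by 0.91 on the log2 scale (SE 0.23, adjusted p = 0.0116). Ndufs1, the large iron-sulfur subunit, fell by 0.78 (SE 0.27, adjusted p = 0.0429). Ndufb2, an accessory subunit of the membrane arm, fell by 1.04 (SE 0.22, adjusted p = 0.00707). Its levels were 5.99, 6.36 and 6.53 in saline-treated B6 libraries and 5.55, 4.66 and 5.51 in PE-treated ones, and 5.93, 6.73 and 6.72 against 5.86, 4.56 and 5.91 in MRL mice. Saline and PE libraries did not overlap in either strain, although the nearest MRL libraries, at 5.91 and 5.93, lay close together. Lower PE libraries without overlap in both strains were found for 8 of the 94 subunits and 2.37% of all genes.

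Ndufa9, an accessory subunit of complex I, had a count of 0 in 2 libraries. The levels of Ndufa9 in saline-treated B6 libraries were -3.65, 0.68 and 3.86, where -3.65 is the value of a count of 0. Its difference between PE and saline, -0.33 (SE 0.93, adjusted p = 0.817), was far smaller than its spread between replicates and turned positive without the third of these libraries (0.56).

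In complex II, Sdhb, the iron-sulfur subunit, fell by 1.03 (SE 0.25, adjusted p = 0.0106), and the membrane anchors Sdhc and Sdhd fell by 0.82 (SE 0.22, adjusted p = 0.0159) and 0.56 (SE 0.17, adjusted p = 0.0278). Sdha did not pass the test (-0.56, SE 0.35, adjusted p = 0.245). The level of Sdha was 9.98, 10.52 and 8.09 in saline-treated B6 libraries, 9.34, 8.59 and 9.49 in PE-treated B6 libraries, 9.67, 10.59 and 10.60 in saline-treated MRL libraries and 10.08, 8.43 and 10.14 in PE-treated MRL libraries. The saline-treated B6 library 3 had the lowest Sdha of all 24 libraries, below both PE libraries numbered 2, and lowered the complex II mean of that library to 7.73 against 8.19 and 8.75 in the other two.

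In complex III, the core subunit Uqcrc1 fell by 0.99 (SE 0.24, adjusted p = 0.0112). Uqcrfs1, the Rieske iron-sulfur protein, fell by 0.90 (SE 0.23, adjusted p = 0.0132), and Cyc1, which docks cytochrome c, by 0.94 (SE 0.25, adjusted p = 0.0135). All 9 nuclear subunits of this complex and mt-Cytb fell.

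In complex V, Atp5g1, which encodes the membrane-ring subunit c, had the largest decrease of its complex at -1.31 (SE 0.30, adjusted p = 0.00896). The level of Atp5g1 was 8.13, 9.02 and 8.87 with saline and 7.43, 6.54 and 7.86 with PE in B6 libraries, and 7.88, 9.13 and 8.92 against 7.82, 6.59 and 7.84 in MRL libraries. No PE library reached a saline library of its strain, although the closest pair in MRL mice, at 7.84 and 7.88, lay near each other. Atp5g2, which encodes the same mature protein, did not pass the test (-0.26, SE 0.19, adjusted p = 0.316). Of the catalytic head, the alpha subunit gene Atp5a1 fell by 0.90 (SE 0.27, adjusted p = 0.0250), whereas the beta subunit gene Atp5b missed the threshold at -0.80 (SE 0.30, adjusted p = 0.0615). Atp5d, the delta subunit of the central stalk, fell by 0.83 (SE 0.18, adjusted p = 0.00818).

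The mitochondrially encoded subunits moved as a group. Their changes ran from -0.96 in mt-Co2 to -1.17 in mt-Atp8, a small complex V subunit (SE 0.31, adjusted p = 0.0144), and mt-Nd5 fell by 1.14 (SE 0.34, adjusted p = 0.0225). The complex IV core subunits mt-Co1 (-1.13, SE 0.51, adjusted p = 0.108) and mt-Co2 (SE 0.41, adjusted p = 0.0876) were not called, having wide errors and sizes like the rest. The share of CPM in these 13 genes was 7.96%, 11.3% and 14.0% (lowest, median, highest) in saline-treated B6 libraries and 4.06%, 6.48% and 6.60% in PE-treated ones. In MRL libraries it was 8.39%, 14.1% and 16.7% with saline and 4.61%, 9.70% and 9.82% with PE, so the groups overlapped in MRL mice and not in B6 mice. The mean log2 CPM of the mitochondrially encoded subunits exceeded that of the nuclear ones by 4.99 to 5.28 in saline-treated B6 libraries and by 4.55 to 4.89 in PE-treated ones. In MRL libraries the ranges, 4.87 to 5.44 and 4.73 to 5.10, overlapped. mt-Nd6 lies on the strand opposite to the other protein genes of the mitochondrial genome, and its reads could not be told from antisense reads without strand information. It fell by 1.04 (SE 0.24, adjusted p = 0.00955).

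Reads of some mitochondrially encoded subunits can be shared with copies of mitochondrial DNA in chromosome 1. Of the 80 members with a matched GENCODE gene, 43 had at least 1 transcript of another gene that matched at 90% identity or more over 50% of the shorter transcript, and for 6 such a gene was in the matrix. mt-Co2 and Gm28661 were identical over 681 bases, and mt-Co3 and Gm28437 over 783 bases. Gm28661 ranged from 1.95 to 12.9 log2 CPM over the 24 libraries and Gm28437 from -3.64 to 12.5, so the split of reads between copy and gene varied greatly between libraries. Levels of these members carry that uncertainty.

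Within each strain the decrease had a similar size but few calls. In B6 mice, 3 of 94 subunits fell between PE and saline, while 0.600% of all genes fell. These were Ndufb2 at -1.06 (SE 0.31, adjusted p = 0.0490), Atp5sl at -0.94 (SE 0.27, adjusted p = 0.0481) and Atp5d at -0.88 (SE 0.26, adjusted p = 0.0495). The median change of the 94 subunits was -0.85. Leaving out 1 library at a time gave 0 to 29 calls, the most without PE-treated B6 library 3. In MRL mice limma called 0 subunits and 0% of all genes, and the median change of the subunits was -0.81. The smallest p-values belonged to Ndufs4 (-0.92, SE 0.28), Cox6a2 (-1.40, SE 0.42) and Ndufb2 (-1.02, SE 0.31), each with an adjusted p = 0.114. Leaving out saline-treated MRL library 1 gave 38 calls, and leaving out each of the other 5 libraries gave 0. These counts and those in B6 mice lack the share of all genes called in the same fits.

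The difference between the strains in the response to PE was tested as an interaction. It called 0 subunits and 0% of all genes, with an unadjusted p below 0.05 for 0 subunits and 614 genes. The smallest p-values among subunits were those of Cox7a2l (-0.30, SE 0.18), Cox6a1 (1.32, SE 0.90) and Cox8a (0.92, SE 0.74), all with an adjusted p = 0.988.

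Against uninjured muscle the PE comparison called more subunits. In B6 mice 76 of 94 fell and 0 rose, while 10.0% of all genes fell, and the median change was -1.02. The largest decreases were in mt-Nd4l (-1.87, SE 0.45, adjusted p = 0.00980), mt-Atp8 (-1.82, SE 0.44), mt-Nd2 (-1.70, SE 0.47), mt-Nd5 (-1.68, SE 0.48) and the nuclear complex I subunit Ndufs8 (-1.60, SE 0.34, adjusted p = 0.00489). The 13 mitochondrially encoded subunits had a median of -1.58 and the 81 nuclear ones -0.95. Without PE-treated B6 library 2 the count was 1, with both PE libraries numbered 2 left out it was 55, and with a term for the sequencing index it was 9. The study lists the same first part of the index for all PE-treated B6 libraries and another for all uninjured B6 libraries. Within B6 mice that part cannot be told apart from this comparison. In MRL mice 19 subunits fell and 0 rose, while 3.78% of all genes fell, with a median of -0.87. mt-Atp8 (-1.48, SE 0.44), Cox6a2 (-1.39, SE 0.42), Cox7a1 (-1.29, SE 0.40), Ndufb2 (-1.14, SE 0.31) and Sdhc (-1.10, SE 0.32) had the largest decreases, with adjusted p-values of 0.0473, 0.0479, 0.0486, 0.0448 and 0.0465. With both PE libraries numbered 2 left out the count was 0, and over single libraries left out it ran from 0 to 69, the most without PE-treated MRL library 3. For both strains, the share of all genes called in these alternative fits is not given.

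Against ECM-treated muscle, PE called 0 subunits in each strain, while 0.226% of all B6 genes and 0% of all MRL genes were called. The median changes of the subunits were -0.75 in B6 and -0.69 in MRL muscle. The smallest p-values in MRL mice were those of Cox6a1 (2.27, SE 0.64, adjusted p = 0.0638), Cox8a (1.74, SE 0.52, adjusted p = 0.0678) and Ndufa13, an accessory subunit of complex I (-0.84, SE 0.27, adjusted p = 0.0715). Without PE-treated MRL library 3 the MRL comparison called 20 subunits, and the share of all genes called in that fit is not given.

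Markers of other cells moved with PE beside the subunits. All 11 macrophage markers rose between PE and saline averaged over both strains, with a median of 1.75, and Cd68 rose by 3.13 (SE 0.67, adjusted p = 0.00741). The summed CPM of these markers was 350 to 388 in saline-treated B6 libraries, 1624 to 5763 in PE-treated B6 libraries and 162 to 514 in saline-treated MRL libraries. In PE-treated MRL libraries it was 282, 283 and 4820, the last in library 2. Of 6 measured neutrophil markers 5 rose, with a median of 2.70, and of 8 fibroblast markers 2 rose, with a median of 1.07. Of 6 slow fibre genes 0 were called, with a median of -2.64 and SEs of 1.00 to 1.41. Without both PE libraries numbered 2, 5 macrophage, 4 neutrophil, 0 fibroblast and 0 slow fibre markers were called, with medians of 1.27, 1.84, 0.44 and -2.68, and 0 of the 20 contractile fibre genes, with a median of -0.38. The part of these cells in the subunit levels was not tested.

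**Figure D3:**
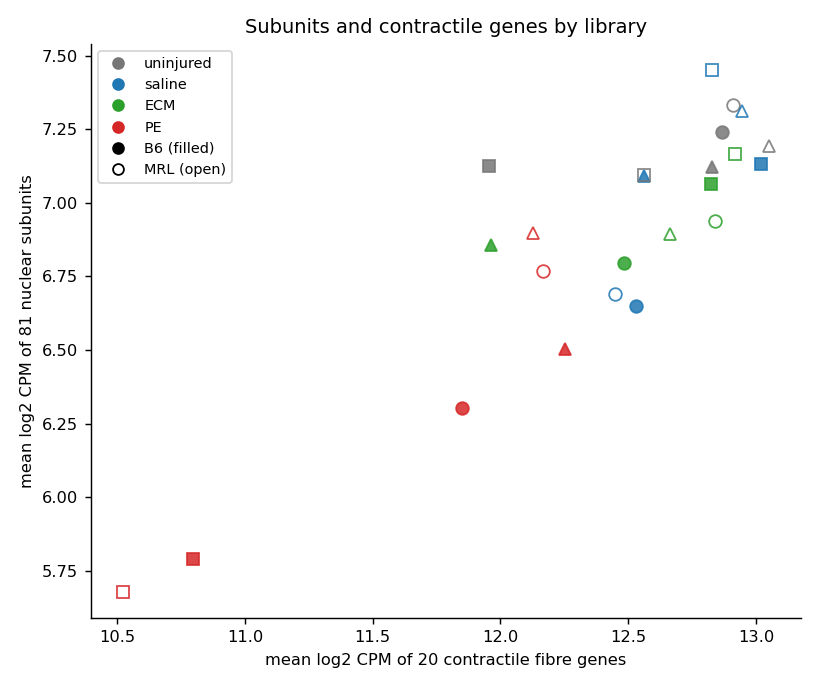
Mean log2 CPM of the 81 nuclear subunits (vertical axis) against that of 20 contractile fibre genes (horizontal axis) in 24 libraries, filled for B6 and open for MRL mice, with colours for treatments and circles, squares and triangles for libraries 1, 2 and 3. The 2 PE libraries numbered 2 lie at the lower left, at 5.79 and 5.68 for the subunits and 10.8 and 10.5 for the contractile genes.

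Set side by side in each library, the nuclear subunit mean lay below the contractile mean by 5.47 to 5.89 in saline-treated B6 libraries and by 5.01 to 5.75 in PE-treated ones. In MRL libraries the ranges were 5.38 to 5.76 and 4.84 to 5.40. By these means the nuclear subunits were not lower relative to contractile genes with PE, and the ranges overlapped in both strains. Medians of change without both PE libraries numbered 2 had another order. They were -0.48 for the nuclear and -0.72 for the mitochondrially encoded subunits, and -0.38 for the contractile genes. The comparison thus depended on the summary and the libraries used.

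Genes that work with the complexes were lower with PE too. Of 46 measured assembly factors 17 fell and 0 rose, with a median of -0.35, and Ecsit, an assembly factor of complex I, fell by 0.95 (SE 0.23, adjusted p = 0.0108). Of 13 tricarboxylic acid cycle enzymes 6 fell, with a median of -0.72, among them Mdh2, the mitochondrial malate dehydrogenase, at -0.95 (SE 0.23, adjusted p = 0.00968). Of 76 mitochondrial ribosomal proteins 47 fell, with a median of -0.42. Of 13 carriers and further subunits 9 fell, with a median of -0.79. These include Cycs, which encodes cytochrome c (-0.84, SE 0.23, adjusted p = 0.0164), and Slc25a4, the muscle ADP/ATP carrier (-1.17, SE 0.31, adjusted p = 0.0143). With both PE libraries numbered 2 left out, 1 of the assembly factors, 1 of the tricarboxylic acid cycle enzymes, 4 of the ribosomal proteins and 1 of the carriers and further subunits fell, and the medians were -0.21, -0.32, -0.26 and -0.52.

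Among 16 regulators of mitochondrial biogenesis 5 fell and 0 rose, with a median of -0.36. Without both PE libraries numbered 2, 1 of the 16 fell, with a median of -0.25. Perm1, a muscle coregulator, fell by 1.43 (SE 0.45, adjusted p = 0.0301) and the nuclear receptor gene Esrrg by 1.33 (SE 0.32, adjusted p = 0.0104). The coactivator genes Ppargc1a and Ppargc1b fell by 0.99 (SE 0.34, adjusted p = 0.0388) and 0.87 (SE 0.23, adjusted p = 0.0137), and Polrmt, the mitochondrial RNA polymerase, by 0.42 (SE 0.12, adjusted p = 0.0207). Nrf1 (0.01, SE 0.15) and Tfam (-0.14, SE 0.15), which encode a nuclear respiratory factor and the packaging factor of mitochondrial DNA, did not pass the test.

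Muscle-type and widely expressed isoforms of complex IV differed in their change with PE. Cox6a2, Cox7a1 and Cox8b are the isoforms typical of striated muscle, and Cox6a1, Cox7a2 and Cox8a are their widely expressed counterparts. The level of Cox6a2 was 8.82, 7.76 and 8.66 in uninjured, 8.05, 8.92 and 8.59 in saline-treated, 7.81, 8.25 and 7.64 in ECM-treated and 7.48, 6.26 and 7.60 in PE-treated B6 libraries. In MRL libraries it was 8.72, 8.04 and 8.45, then 7.76, 8.82 and 8.67, then 8.25, 8.42 and 7.88, and 7.55, 6.00 and 7.49 in the same order. PE libraries lay below all saline libraries in both strains. Averaged over the strains Cox6a2 fell by 1.40 (SE 0.30, adjusted p = 0.00725), Cox7a1 by 1.28 (SE 0.28, adjusted p = 0.00794) and Cox8b by 1.08 (SE 0.29, adjusted p = 0.0149).

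The level of Cox6a1 was 5.51, 8.49 and 5.88 in uninjured, 5.0, 4.83 and 5.66 in saline-treated, 5.20, 5.16 and 7.12 in ECM-treated and 5.69, 6.39 and 5.64 in PE-treated B6 libraries. In MRL libraries it was 4.87, 6.54 and 5.18, then 5.74, 5.20 and 4.63, then 5.32, 4.70 and 4.93, and 7.38, 6.63 and 7.75 in the same order. Single uninjured and ECM-treated libraries were as high as the PE-treated ones. Cox6a1 rose by 1.40 with PE (SE 0.45, adjusted p = 0.0319) and was the 1 subunit called higher, a call lost when any 1 of 6 libraries was left out, with the highest adjusted p of 0.0948 without PE-treated B6 library 2, and also without both PE libraries numbered 2 (adjusted p = 0.109). Cox8a was higher by 1.00 without passing the test (SE 0.37, adjusted p = 0.0548), and Cox7a2 fell by 0.52 (SE 0.15, adjusted p = 0.0178). Cox4i1, the general isoform of subunit 4, fell by 0.58 (SE 0.18, adjusted p = 0.0308). Cox4i2, its lowly expressed lung and hypoxia isoform, was at -0.12 log2 CPM on average with PE and 0.46 with saline, a difference that did not pass the test (adjusted p = 0.118).

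Ratios within a library do not depend on how libraries are scaled. The ratio of Cox6a2 to Cox6a1 per transcript length had a median of 6.94 in saline-treated B6 libraries (6.40 to 14.4) and 2.90 in PE-treated ones (0.767 to 3.27), and 10.3 (3.41 to 13.9) and 0.703 (0.541 to 0.947) in MRL libraries. The difference between PE and saline on the log2 scale, averaged over the strains, was -2.81 (exact permutation test within strain, 2-sided, 6 against 6 libraries, p = 0.005, the smallest the 400 permutations allow, adjusted p = 0.0225 over 9 tests). The ratio of Cox8b to Cox8a differed by -2.08 (exact permutation p = 0.005, adjusted p = 0.0225), and that of Cox7a1 to Cox7a2 by -0.75 (exact permutation p = 0.01, adjusted p = 0.03). All 3 ratios were lower with PE in both strains. The PE libraries numbered 2 had the lowest PE value of every ratio in each strain, and the ratios were not tested without both. On the log2 scale Cox7a1 to Cox7a2 was at 0.10 and -0.02 in them, in B6 and MRL mice, and at 0.77 to 1.15 in the other PE libraries. PE-treated B6 library 3, at 1.15, lay above saline-treated B6 library 1, at 1.14. The call for Cox7a1 to Cox7a2 was lost without any 1 of 5 saline libraries, B6 2 and 3 and MRL 1 to 3, with differences of -0.80 to -0.71 and exact permutation adjusted p-values of up to 0.075. Within 1 strain, 3 against 3 libraries cannot give a p below 0.10.

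With ECM and with the control injury no ratio passed the test. ECM against saline differed by -0.66, 0.05 and -0.16 for the Cox6, Cox7 and Cox8 pairs (exact permutation, adjusted p = 0.513, 0.69 and 0.69), and saline against uninjured by 0.96, 0.04 and 0.34 (exact permutation, adjusted p = 0.513, 0.69 and 0.69).

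**Figure D4:**
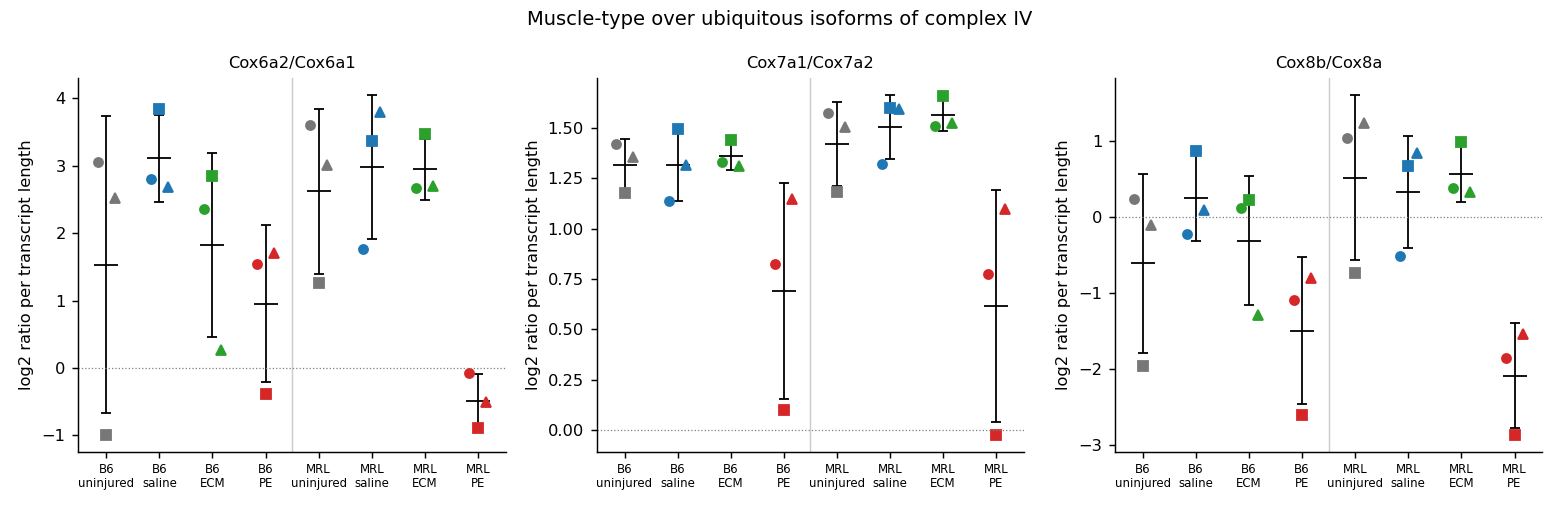
Log2 ratio of muscle-type to widely expressed isoforms of complex IV per transcript length (vertical axes) in the 8 groups (horizontal axis). Circles, squares and triangles are libraries 1, 2 and 3, bars are group means ± SD (n = 3), and the dotted line marks equal levels. All 3 PE-treated MRL libraries lie below 0 for Cox6a2/Cox6a1, and 1 uninjured B6 library, at -0.99, is as low.

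Fat markers were high in many of the libraries with high Cox6a1. The 5 libraries with the highest Cidea, a lipid droplet protein gene of brown fat, were all among the 7 with the highest Cox6a1, and the same 7 had the highest Cox8a. They are uninjured B6 library 2 (Cidea 8.39, Cox6a1 8.49), PE-treated MRL libraries 3 (7.27 and 7.75) and 1 (6.60 and 7.38), ECM-treated B6 library 3 (6.14 and 7.12) and uninjured MRL library 2 (6.79 and 6.54). The other libraries of the 7 were the PE libraries numbered 2, of B6 mice (Cidea -0.31, Cox6a1 6.39) and of MRL mice (2.08 and 6.63), which had the highest macrophage marker means of all libraries. The cutoffs of 5 and 7 libraries were not fixed beforehand. Over PE against saline, 0 of 10 adipocyte markers were called, with a median of 0.30. That median averages values of opposite sign, since all 10 were below 0 in B6 mice, with a median of -1.21, and above 0 in MRL mice, with a median of 1.85. None of the 10 was called in either strain, and the difference between strains was not tested for the list. Without both PE libraries numbered 2, 0 were called and the median was 0.78. Of 7 measured brown adipocyte markers 3 fell, namely Cox7a1, Cox8b and Ppargc1a, which muscle also expresses, and without both PE libraries numbered 2, 1 of the 7 fell. Ucp1 (1.22, SE 1.28) and Cidea (0.69, SE 1.10) did not pass the test averaged over strains. Within strains they did not pass it either, Ucp1 being at -0.34 in B6 and 2.77 in MRL mice (SE 1.81 in each) and Cidea at -1.22 and 2.61 (SE 1.55 in each). The part of fat and immune cells in the isoform ratios was not tested.

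The promoters of these isoforms are shown because the isoform pairs shifted against each other. Each line gives the 250 bases before the annotated start from RefSeq on GRCm38.p6, 5′ to 3′ along the gene's strand, with capitals for a match to a motif. Motifs were searched on both strands over 250 bases before and 50 after the start. They were GCGCATGC for NRF1, CAAGGTCA for estrogen-related receptors, CCGGAAG for ETS factors such as GABPA and AAGATGGC for YY1. No entry was found for Cox6a2.
Cox7a1, chr7:30183921-30184170, plus strand: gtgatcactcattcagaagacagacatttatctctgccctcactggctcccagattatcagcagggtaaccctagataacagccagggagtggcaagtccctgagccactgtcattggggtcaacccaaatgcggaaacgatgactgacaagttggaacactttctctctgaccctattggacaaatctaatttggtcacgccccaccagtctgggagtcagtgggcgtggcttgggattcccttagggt
Cox8b, chr7:140900447-140900696, minus strand: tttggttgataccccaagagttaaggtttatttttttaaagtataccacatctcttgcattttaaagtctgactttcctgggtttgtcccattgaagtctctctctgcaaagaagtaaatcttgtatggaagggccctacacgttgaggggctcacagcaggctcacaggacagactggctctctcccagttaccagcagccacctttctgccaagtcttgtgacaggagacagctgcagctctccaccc
Cox7a2, chr9:79759854-79760103, minus strand: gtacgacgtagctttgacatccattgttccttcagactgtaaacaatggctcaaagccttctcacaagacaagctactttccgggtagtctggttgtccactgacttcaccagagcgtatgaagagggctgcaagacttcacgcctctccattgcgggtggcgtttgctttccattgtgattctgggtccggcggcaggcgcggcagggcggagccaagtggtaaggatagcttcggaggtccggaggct
Cox8a, chr19:7217617-7217866, minus strand: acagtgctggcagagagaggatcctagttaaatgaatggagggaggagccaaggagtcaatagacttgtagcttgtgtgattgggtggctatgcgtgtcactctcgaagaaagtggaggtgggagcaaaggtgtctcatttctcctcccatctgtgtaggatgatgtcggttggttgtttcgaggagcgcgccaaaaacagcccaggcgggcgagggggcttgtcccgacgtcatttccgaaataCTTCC
Cox6a1, chr5:115348959-115349208, minus strand: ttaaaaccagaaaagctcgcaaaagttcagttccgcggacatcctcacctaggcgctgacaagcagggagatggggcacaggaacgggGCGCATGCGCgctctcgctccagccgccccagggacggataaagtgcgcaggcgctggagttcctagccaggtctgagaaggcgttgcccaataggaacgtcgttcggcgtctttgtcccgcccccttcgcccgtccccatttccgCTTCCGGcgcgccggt
The Cox6a1 promoter held overlapping NRF1 matches on both strands and an ETS match, and that of Cox8a held an ETS match that runs across the printed end and another after the start, beyond the printed stretch. None of the 4 letter strings was found in the windows of Cox7a1, Cox8b and Cox7a2. The GC content of the printed stretches was 51.2% for Cox7a1, 47.2% for Cox8b, 54.8% for Cox7a2, 52.8% for Cox8a and 62.8% for Cox6a1.

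Over all members, 66 had a promoter entry, as did 10991 genes of the matrix. The NRF1 letters were in 15.2% of member promoters and 5.09% of all, the receptor letters in 6.06% and 1.05%, the ETS letters in 22.7% and 16.9%, and the YY1 letters in 15.2% and 4.38%. These are matches of letters, not measured binding.

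No subunit passed the test with the control injury or with ECM. Between saline and uninjured muscle, averaged over both strains, limma called 0 subunits and 0% of all genes, with an unadjusted p below 0.05 for 0 subunits and 1580 genes. The median change of the subunits was -0.12. Cox6a1 (-0.90, SE 0.45, adjusted p = 0.467), Cox8a (-0.65, SE 0.37) and Cox4i2 (0.47, SE 0.27, both adjusted p = 0.494) had the smallest p-values. Within B6 mice the median was -0.18 and within MRL mice -0.06, again with 0 calls and 0% of all genes called. The smallest p-values in B6 mice were those of Cox6a1 (-1.47, SE 0.64, adjusted p = 0.372), Cox8a (-1.17, SE 0.52) and Sdha (-1.09, SE 0.50). Uninjured B6 library 2 had the highest Cox6a1 and Cox8a of all 24 libraries, at 8.49 and 7.45. In uninjured B6 libraries 1 and 3, Cox6a1 was at 5.51 and 5.88 and Cox8a at 5.21 and 5.32.

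Between ECM and saline 0 subunits and 0.0283% of all genes were called, with an unadjusted p below 0.05 for 0 subunits. The median change of the subunits was again -0.12. Atp5g2 (-0.32, SE 0.19), Cox4i2 (-0.45, SE 0.27) and Atp5sl (-0.29, SE 0.19) had the smallest p-values, each with an adjusted p = 0.998. Within strains 0 subunits were called, with medians of -0.08 in B6 and -0.14 in MRL mice, beside 0.0283% and 0.00706% of all genes. Against uninjured muscle, ECM called 0 subunits in B6 muscle (median -0.29, 0.424% of all genes) and MRL muscle (median -0.19, 0.0141% of all genes). The interactions with strain called 0 subunits and 0% of all genes for the control injury and for ECM. The saline against uninjured and ECM against saline comparisons share their saline libraries with that of PE against saline.

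Between the strains, few subunits differed. Reads of both strains were mapped to the same reference, and the part of sequence differences between the strains in these counts was not tested. In uninjured and in ECM-treated muscle, the study lists a first part of the index that all libraries of a strain share and that differs between the strains. There it cannot be told apart from strain. In uninjured muscle, 1 of 94 subunits was higher in MRL mice and 0 lower, while 1.35% of all genes were higher and 1.25% lower, and the median difference was 0.05. With saline 1 was higher (1.07% of all genes), with ECM 1 (1.27%) and with PE 0 (1.60%), and the medians were 0.16, 0.16 and 0.25. Without PE-treated MRL library 2 the count with PE was 30. Averaged over the 4 treatments, a comparison added after the values were seen, 3 subunits were higher and 2 lower, while 7.37% and 7.87% of all genes were. The median difference was 0.15, and 78 of 94 subunits were above 0, beside 6905 of 14159 genes. Without PE-treated MRL library 2 this count was 32. The shares of all genes called without that library are not given beside the 30 and 32 subunits.

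Sdhc, a membrane anchor of complex II (GRCm39 chr1:170954732-170978223), was higher in MRL mice. Its level was 7.74, 7.62 and 7.72 in uninjured, 7.24, 7.80 and 7.49 in saline-treated, 7.47, 7.70 and 7.43 in ECM-treated and 7.01, 6.46 and 7.02 in PE-treated B6 libraries. In MRL libraries it was 9.10, 8.89 and 8.86, then 8.30, 9.14 and 9.02, then 8.65, 8.77 and 8.24, and 8.19, 6.83 and 8.54 in the same order. Every MRL library lay above every B6 library of its treatment except PE-treated MRL library 2. The difference was 1.26 in uninjured (SE 0.32, adjusted p = 0.0357) and 1.31 in saline-treated muscle (SE 0.32, adjusted p = 0.0274). It was 1.02 with ECM (SE 0.32, adjusted p = 0.113) and 1.02 with PE (SE 0.32, adjusted p = 0.0844), which did not pass the test. The call in uninjured muscle was lost when any 1 of the 6 libraries was left out, with adjusted p-values of up to 0.255 over all alternatives, and the call with saline when any 1 of 4 was. Averaged over treatments the difference was 1.15, or 2.22-fold (SE 0.16, adjusted p = 3.1e-05), and it was called under each alternative run. The other complex II genes were not called between strains. No other gene had a transcript matching Sdhc under the criteria above.

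mt-Nd3, a mitochondrially encoded subunit of complex I, was lower in MRL mice by 0.78 averaged over treatments (SE 0.20, adjusted p = 0.0132) and was not called within any treatment, for example at -1.21 in uninjured muscle (SE 0.41, adjusted p = 0.177). Its level was 10.41, 10.18 and 10.28 in uninjured B6 and 9.52, 8.29 and 9.43 in uninjured MRL libraries. Gm28438, a copy of mt-Nd3 on chromosome 1 (GRCm39 chr1:24651856-24652200) that matches it at 99.7% identity over 345 bases, had the opposite pattern. It was at 3.26, 4.42 and 4.33 in uninjured B6 and 8.84, 9.53 and 8.77 in uninjured MRL libraries. Averaged over treatments Gm28438 was higher in MRL mice by 6.08 (SE 0.56, adjusted p = 1.2e-07). When the CPM of both were added, the group means were 10.31 in uninjured B6 and 10.13 in uninjured MRL muscle, and the difference averaged over treatments was 0.017. The lower mt-Nd3 in MRL mice was thus present for the gene's own count and not for the sum with its copy.

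**Figure D5:**
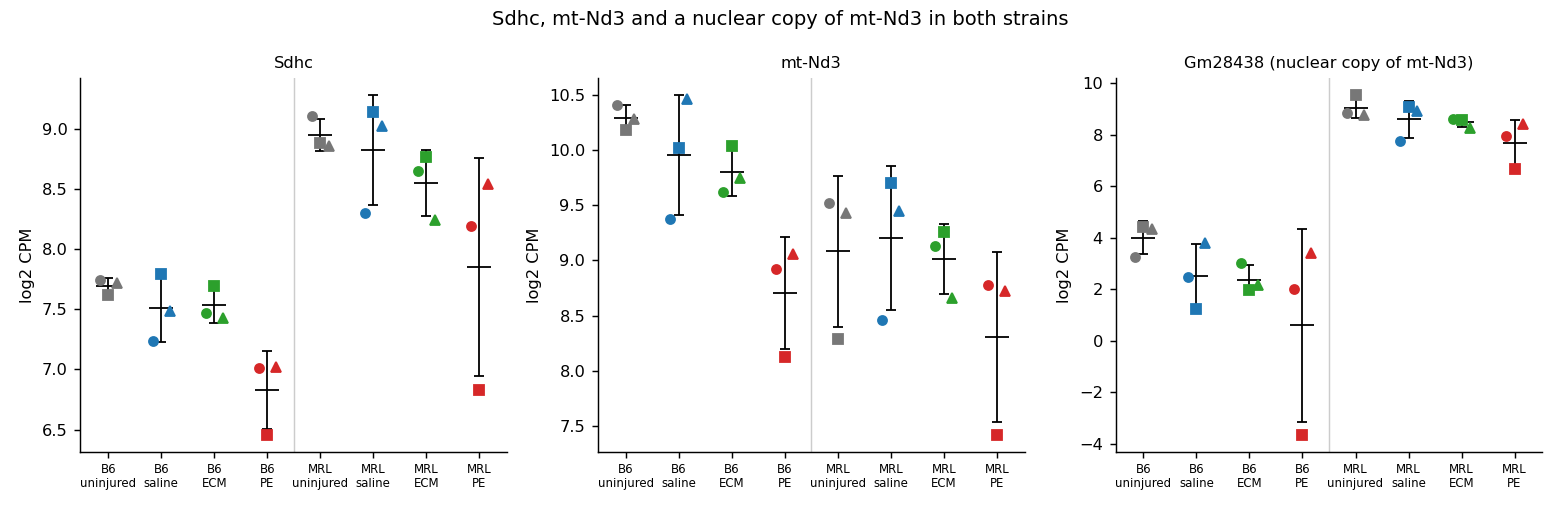
Log2 CPM of Sdhc, mt-Nd3 and Gm28438, the copy of mt-Nd3 on chromosome 1 (vertical axes), in the 8 groups (horizontal axis). Circles, squares and triangles are libraries 1, 2 and 3, and bars are group means ± SD (n = 3). Sdhc and Gm28438 are higher in MRL mice, with PE-treated MRL library 2 inside the B6 range for Sdhc, and mt-Nd3 is lower by 0.78 averaged over treatments.

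Cox7a2l, counted here in complex IV, was lower in MRL mice by 0.31 averaged over treatments (SE 0.06, adjusted p = 0.00244) and was not called within any treatment. Its copy Gm6969, a processed pseudogene on chromosome 12 with 98.0% identity over 342 bases, was at -2.56 on average in uninjured B6 and 2.39 in uninjured MRL muscle. Adding the copy's CPM moved the averaged difference of Cox7a2l to -0.22. Atp5h, the peripheral stalk subunit d of complex V, was higher by 0.47 (SE 0.13, adjusted p = 0.0199). Atp5s, a lowly expressed relative of complex V factors, was higher by 0.71 (SE 0.17, adjusted p = 0.00789). It was the 1 subunit called with ECM, at 2.71, 2.56 and 2.72 in MRL against 0.95, 1.49 and 1.62 in B6 libraries, and that call was lost when any 1 of the 6 libraries was left out.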

How the data were processed

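Whole quadriceps RNA (poly(A)-selected, with ERCC spike-ins) was sequenced in 24 libraries. The authors pseudoaligned reads with kallisto to mouse GRCm39 cDNA, summed them to genes with tximport, kept genes with CPM above 1 in at least 3 libraries, applied TMM normalization and deposited log2 CPM with a prior count of 2. The study lists sequenced reads per library, which were not used here, and the matrix itself gives depth only as a mean effective library size. The labels do not say more of the replicates than that they are separate samples of a group, so p-values measure the spread between these samples.

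Group means were fitted over all 24 libraries with limma 3.58.1 in R 4.3.3, with a trended prior variance and 2-sided tests, and 14159 genes were tested after 1 nameless entry was left out. This replaces the study's voom step, which needs counts. The tests were tried on simulated data. Ratios used exact permutation within strain. Promoters and transcript lengths came from RefSeq and GENCODE, matched by symbol, and transcripts were compared with BLAST+ 2.17.0. Of the 94 members, 80 had a matched gene (3 by an older symbol) and 66 a promoter.

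Members and lists were chosen with earlier results of these data known. Named members were fixed anchors of each complex, the mitochondrially encoded subunits, up to 5 called members in each direction with the largest change and, where none was called, up to 3 with the smallest p. Ndufa9, Atp5g2 and the copies were named after their values were seen, and the ranking of libraries by Cidea and Cox6a1 was not planned beforehand. Same-numbered libraries deviated together, with every correlation over 0.1, only between PE-treated strains (0.105, 0.532 and 0.439), and the labels do not say that numbers mark a shared animal or day. A block for the number left the count there at 0. Alternatives covered the pseudocount, a filter on low values, scaling, libraries in the fit, prior variance, library weights, the replicate block, the sequencing index and leaving out libraries. In the study's list the first part of the index is tied to strain and group, so counts with an index term carry that limit. The tie is complete for the strain comparisons in uninjured and in ECM-treated muscle, among others, and partial elsewhere.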

Additional observations from a re-analysis of the deposited data

How the results depend on the processing

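Only 3 libraries per group and the 2 PE libraries that stood apart limit these counts, and genes with levels near the lowest value are imprecise. Counts below are subunits called, in the order given. The share of all genes called under each setting is not given beside them, so they do not show a change particular to the subunits. The cause of these shifts was not tested. For PE against saline averaged over strains (82), the count was 14 centred on contractile genes, 2 with the compared groups only, 14 without both PE libraries numbered 2 and 38 to 86 without single libraries. For PE against saline in B6 mice (3), it was 1 with the filter on low values, 8 with quantile normalization, 90 with library weights, 6 without both PE libraries, and 0 with equal totals, contractile centring, constant variance, the replicate block, the index term and compared groups only, and 0 to 29 without single libraries. In MRL mice (0) it was 67 with library weights and 0 to 38 without single libraries. For PE against uninjured in B6 mice (76) it was 43 with equal totals, 3 with contractile centring, 9 with the index term and 1 to 76 without single libraries. In MRL mice (19) it was 31 with the filter, 4 with equal totals and with contractile centring, 67 with the index term, 0 with quantile normalization, constant variance, the replicate block, compared groups only and without both PE libraries, and 0 to 69 without single libraries. For PE against ECM (0) library weights gave 85 in B6 and 6 in MRL mice, where equal totals gave 2, contractile centring 9 and single libraries left out 0 to 20.

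Library weights, whose estimate did not converge, gave 74 for saline against uninjured in B6 mice, 4 over both strains, 5 for ECM against saline in B6 mice, 1 over both strains, 10 for ECM against uninjured in B6 mice, and 12, 1 and 4 for the interactions with saline, ECM and PE, each 0 otherwise. The index term gave 2, 1 and 1 for saline against uninjured in B6 mice and over both strains and for ECM against uninjured in B6 mice, and compared groups only gave 3 for the last.

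Between strains in uninjured muscle (1) the count was 2 with equal totals, 3 with library weights, 0 with the replicate block and the index term, and 0 to 0 without single libraries. With saline (1) it was 85 with library weights, 2 with the index term, 0 with compared groups only and 0 to 1 without single libraries. With ECM (1) it was 7 with library weights, 2 with the index term, 0 with the filter, quantile normalization, contractile centring and the replicate block, and 0 to 0 without single libraries. With PE (0) it was 2 with equal totals and the index term, 1 with quantile normalization, 77 with library weights, 3 without both PE libraries and 0 to 30 without single libraries. Averaged over treatments (5) it was 2 with contractile centring, 79 with library weights, 23 without both PE libraries and 5 to 32 without single libraries. The replicate block changed the PE against saline count over both strains to 80 and that of PE against uninjured in B6 mice to 71, and numbers otherwise only name the libraries.

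Contractile centring turned the sign for PE against saline over both strains in Cox8b (0.020), Cox7a2 (0.58), Cox4i1 (0.53), Cox4i2 (0.52), Ndufs1 (0.32), Ndufv1 (0.19), Ndufb2 (0.067), Sdha (0.54), Sdhb (0.071), Sdhc (0.28), Sdhd (0.55), Uqcrc1 (0.12), Uqcrfs1 (0.20), Cyc1 (0.16), Atp5a1 (0.21), Atp5b (0.31), Atp5d (0.28), mt-Co2 (0.14), mt-Nd6 (0.060), Ndufa9 (0.77) and Cox7a2l (0.86). It did so in B6 mice for Atp5sl (0.14), Ndufb2 (0.016) and Atp5d (0.19), in MRL mice for Ndufs4 (0.21) and Ndufb2 (0.12), for Ndufa13 against ECM in MRL mice (0.36), and for Ndufb2 (0.10) and Sdhc (0.14) against uninjured MRL muscle. Equal totals turned Cox7a2l (0.015), and library weights and the index term turned Ndufa9 (1.24 and 0.51), for PE against saline over both strains. Library weights turned mt-Nd3 between strains with saline (0.017). Without single libraries the strain difference of Cox7a2l with saline ran from -0.23 to 0.013 and that of mt-Nd3 with PE from -0.68 to 0.048, and the PE against saline difference of Ndufa9 from -1.32 to 0.56. On the log2 scale the Cox7a1 to Cox7a2 ratio ran from -0.87 to -0.60 for PE against saline and from -0.019 to 0.086 for saline against uninjured, and Cox8b to Cox8a from -0.38 to 0.080 for ECM against saline.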
